A study of Homo sapiens with 6 samples.

Results

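CXCL9, CXCL10 and CXCL11 encode the chemokines that bind the receptor CXCR3. These 3 genes were taken, by matching their symbols to the Ensembl identifiers, from the 63677 genes of an RNA-Seq count table of the human multiple myeloma cell line RPMI8226, which is long established in culture. They were chosen with their difference between the treatments already known, so that difference is described below and carries no test. The cells, wild type by their labels, were exposed for 6 hr to 100 nM GST-PTR1, a recombinant fusion of glutathione-S-transferase (GST) with the PTR1 domain of HAPLN1, a protein of the extracellular matrix, or to 100 nM GST by itself as the control, with 3 libraries of each. All 6 libraries come from this single line grown in culture, without the T cells, macrophages or stroma of the bone marrow, and were labelled as biological replicates. All 3 genes passed the filter on low counts, which 16926 genes passed.

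CXCR3 is a receptor of activated T cells and NK cells, and its ligands guide these cells into inflamed tissue and tumors. CXCL9 (MIG), CXCL10 (IP-10) and CXCL11 (I-TAC) are classically made by cells that sense interferon-γ: JAK kinases at the receptor activate factors that bind GAS elements, and IRF1 and complexes with STAT2 and IRF9 act through interferon-stimulated response elements (ISRE). NF-κB, which TNF and Toll-like receptors activate, also acts on the CXCL10 promoter, and type I and type III interferons induce CXCL10 and CXCL11 as well. In multiple myeloma these ligands are measured as products of the tumor and of its marrow environment.

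The 3 genes lie side by side on the minus strand of chromosome 4. In GRCh37, the build of the counts, CXCL9 (ENSG00000138755) spans 76922428 to 76928641, CXCL10 (ENSG00000169245) spans 76942273 to 76944650 and CXCL11 (ENSG00000169248) spans 76954835 to 76962568. Their promoters are shown because the transcription factors named above act through short elements in them. The following are the 250 bases upstream of each RefSeq start, from the RefSeq annotation of GRCh38.p14, read 5′ to 3′ on the minus strand of chr4:76007510-76007759 for CXCL9, chr4:76023498-76023747 for CXCL10 and chr4:76036071-76036320 for CXCL11. Capitals mark exact matches, on either strand, to an ISRE (GAAA and GAAA 2 bases apart), a GAS element (TTC and GAA 3 bases apart), an NF-κB site or TATAAA.
CXCL9: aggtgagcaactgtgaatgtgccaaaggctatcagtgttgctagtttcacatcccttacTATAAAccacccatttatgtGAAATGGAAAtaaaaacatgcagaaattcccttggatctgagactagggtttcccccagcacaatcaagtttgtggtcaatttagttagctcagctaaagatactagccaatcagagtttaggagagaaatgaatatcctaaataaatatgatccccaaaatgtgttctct
CXCL10: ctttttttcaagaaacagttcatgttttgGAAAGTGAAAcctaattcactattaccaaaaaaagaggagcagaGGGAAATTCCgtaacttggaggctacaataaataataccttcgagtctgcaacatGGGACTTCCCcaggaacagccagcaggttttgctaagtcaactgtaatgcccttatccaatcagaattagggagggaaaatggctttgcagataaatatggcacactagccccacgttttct
CXCL11: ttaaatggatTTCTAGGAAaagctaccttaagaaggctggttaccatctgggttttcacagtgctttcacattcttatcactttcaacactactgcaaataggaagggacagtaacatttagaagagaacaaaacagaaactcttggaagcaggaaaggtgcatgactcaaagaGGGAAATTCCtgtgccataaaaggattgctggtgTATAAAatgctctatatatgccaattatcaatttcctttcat

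The windows differed in the elements they held. The CXCL10 window had an ISRE match at bases 221 to 212 before the start and NF-κB matches at bases 177 to 168 and 122 to 113. CXCL9 had an ISRE match at bases 171 to 162 and TATAAA at bases 191 to 186. CXCL11 had a GAS match at bases 240 to 232, an NF-κB match at bases 76 to 67 and TATAAA at bases 42 to 37. The NF-κB match of CXCL11 and the distal one of CXCL10 are the same 10 letters. Of 35116 RefSeq promoter windows of this length, 3.02% held an ISRE match, 6.57% a GAS match, 9.96% an NF-κB match and 10.7% TATAAA, while 0.202% held both an ISRE and an NF-κB match, as CXCL10 does. All 3 windows were poor in G and C, at 38.4% for CXCL9, 40.8% for CXCL10 and 37.2% for CXCL11 against a median of 58% over all windows. A match is a description of letters, and a missing match says only that those letters are not in these 250 bases.

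**Figure D1:**
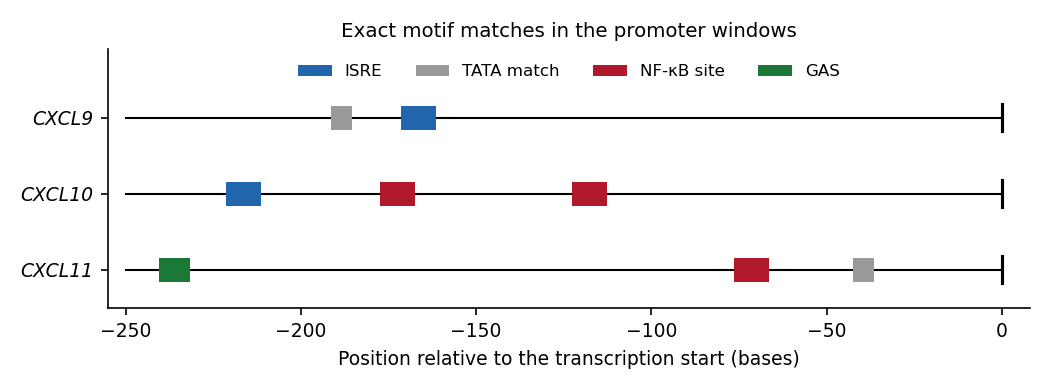
Positions of exact motif matches in the 250 bases upstream of the RefSeq start of CXCL9, CXCL10 and CXCL11, with the horizontal axis in bases relative to the start and each box covering 1 match. CXCL10 holds an ISRE and a pair of NF-κB matches, CXCL9 an ISRE match and CXCL11 a GAS and an NF-κB match.

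Each library's level is given as RPKM, the reads per kilobase of exon and per 1000000 reads of the library's TMM-scaled total, so that genes of different length can be compared. Library totals were 15202503 to 23453473 counts with GST and 22874133 to 44688737 with GST-PTR1, and values below are listed within each treatment from the smallest to the largest library. All 3 ligand mRNAs were present without the PTR1 domain and were far more abundant with it, and no GST library overlapped a GST-PTR1 library for any of them. Over all genes tested, 19.2% were higher in every GST-PTR1 library than in every GST library and 21.2% were lower. This contrast was the one the genes were chosen on, so nothing is read from that count.

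CXCL10 was the most abundant ligand in every library. It was measured at 137, 277 and 307 RPKM in the GST libraries (mean 240.2 ± 90.6, SD, n = 3). With GST-PTR1 it was measured at 5337, 7139 and 9581 RPKM (7352 ± 2130). The lowest GST-PTR1 library was 17.4-fold above the highest GST library. CPM, used below for other genes, is the same value without the division by exon length. In the edgeR fit over all genes the log2 fold change was 4.93 (SE 0.33), or 30.6-fold, which ranked 58 of 16926. Ordered by mean RPKM among 57773 genes on the primary chromosomes, CXCL10 stood at place 186 with GST and at place 8 with GST-PTR1. In the GST-PTR1 library with the smallest share, 0.61% of all counted reads fell on this gene (95% Wilson interval 0.607 to 0.613%), and in the one with the largest, 0.992% (0.989 to 0.995%). Intervals of this kind cover counting error only.

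CXCL9 was measured at 33.5, 57.3 and 57.9 RPKM with GST (49.5 ± 13.9, SD, n = 3) and at 876, 1474 and 1765 RPKM with GST-PTR1 (1372 ± 453). The GST libraries of 20077280 and 23453473 counts were nearly equal, and the smallest library was the low value. The gap between the highest GST and the lowest GST-PTR1 library was 15.1-fold. The log2 fold change was 4.79 (SE 0.30), or 27.7-fold, which ranked 65. CXCL9 moved from place 1176 to place 33 by mean RPKM.

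CXCL11 was the scarcest of the ligands in every library. Its counts were 30, 73 and 108 with GST and 2492, 4055 and 8336 with GST-PTR1. These correspond to 0.944, 1.81 and 2.27 RPKM (1.67 ± 0.673, SD, n = 3) and to 58.6, 77.8 and 110.8 RPKM (82.4 ± 26.4). With 30 counts, the counting error alone is 18.3% of the value. The lowest GST-PTR1 library was 25.8-fold above the highest GST library. The log2 fold change was 5.58 (SE 0.31), or 47.8-fold, which ranked 42, and the place by mean RPKM went from 11985 to 814. The exon length behind the RPKM merges all annotated transcripts and includes an alternative upstream exon, so the level of CXCL11 per length depends on that annotation.

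**Figure D2:**
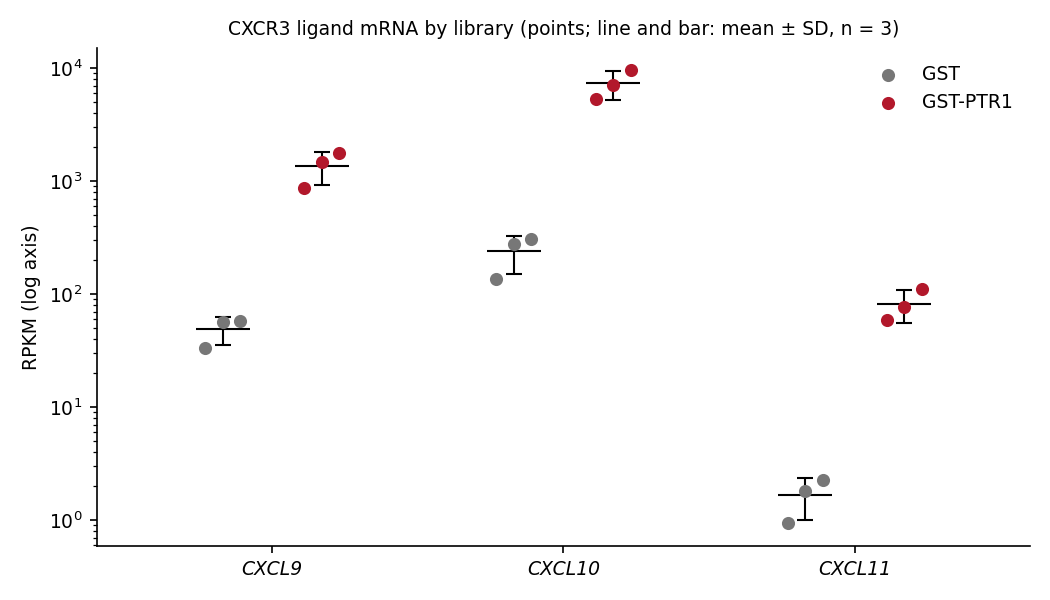
RPKM (log axis) of CXCL9, CXCL10 and CXCL11 in the 3 GST and 3 GST-PTR1 libraries, where each point is a library and the line and bar are the mean ± SD. The GST-PTR1 points lie above the GST points for all 3 genes, by at least 15.1-fold between the nearest libraries.

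In absolute terms the difference was largest for CXCL10, at 7112 RPKM between the means of the treatments, and no other gene in the table gained as many, whether totals were TMM-scaled or not. CXCL9 gained 1322 RPKM, in place 9 of all genes with TMM-scaled totals and place 3 with library totals. CXCL11 gained 80.7 RPKM, in place 173 or 91. Together the 3 genes took 0.0448 ± 0.0149% of the counts with GST and 1.16 ± 0.292% with GST-PTR1.

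The proportions among the ligands changed less than their levels. CXCL10 made up 79.9 to 83.6% of their summed RPKM in the GST libraries and 82.1 to 85.1% in the GST-PTR1 libraries, and these ranges overlap. CXCL9 made up 15.8 to 19.5% and 14.0 to 16.96%, which also overlap. CXCL11 made up 0.539 to 0.619% with GST and 0.895 to 0.967% with GST-PTR1, with no overlap. The ratio of CXCL10 to CXCL11 was 145.1, 153.0 and 135.2 with GST (144 ± 8.96, SD, n = 3) and 91.1, 91.8 and 86.5 with GST-PTR1 (89.8 ± 2.87). The ratio of CXCL10 to CXCL9 was 4.74 ± 0.609 with GST and 5.45 ± 0.624 with GST-PTR1, a difference close to the spread between libraries. CXCL9 to CXCL11 was 30.9 ± 5.02 and 16.6 ± 2.08. These ratios derive from the contrast on which the genes were chosen and are given without a test.

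**Figure D3:**
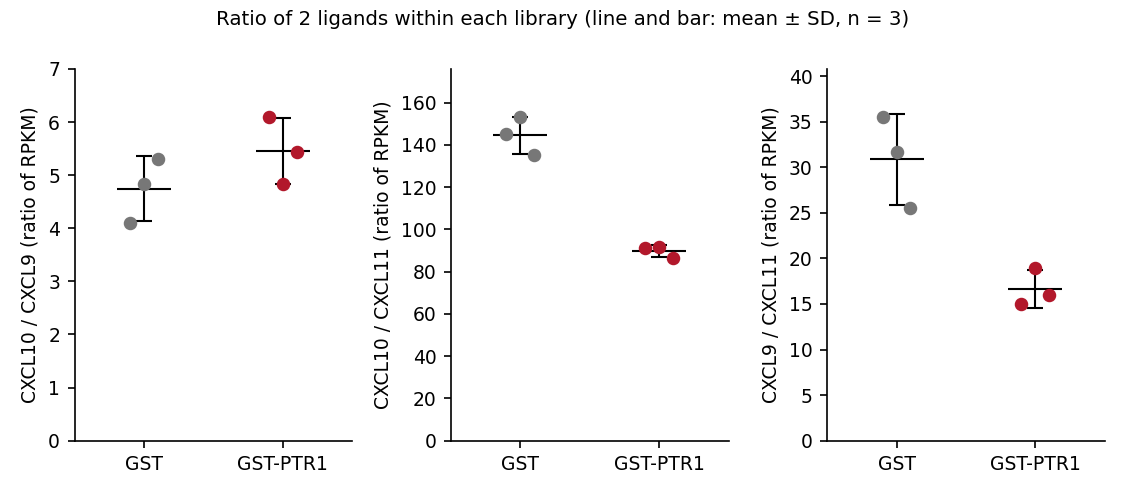
Ratio of RPKM between each pair of ligands within each library, with GST in grey and GST-PTR1 in red, each point a library and the line and bar the mean ± SD. The ratios to CXCL11 are lower in every GST-PTR1 library (for CXCL10 to CXCL11, at most 91.8 against at least 135.2), and the ratios of CXCL10 to CXCL9 overlap.

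Within a treatment the 3 genes varied more than most genes. Their CVs over the GST libraries were 28.1% for CXCL9, 37.7% for CXCL10 and 40.2% for CXCL11, against a median of 11.96% over 14839 genes of at least 1 CPM. Over the GST-PTR1 libraries they were 33.0%, 28.97% and 32.04%, against a median of 10.5% over 14672 genes. Ratios between the ligands varied less than the levels. The CV was 6.20% with GST and 3.19% with GST-PTR1 for CXCL10 to CXCL11, 12.8% and 11.4% for CXCL10 to CXCL9, and 16.3% and 12.5% for CXCL9 to CXCL11, the latter pairs about at or above the median gene. In both treatments all 3 genes were lowest in the library with the smallest total and highest in the one with the largest total. The part of library size in these levels was not tested.

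The genes whose profiles over the 6 libraries lay nearest to each ligand were found by the mean absolute difference of log2 CPM, each gene centred on its GST mean. With this centring a small value mostly means a like difference between the treatments, on which the ligands were chosen. Spread within a treatment can still differ. With GST-PTR1, GBP5, named below, was at 55.1 ± 2.09 CPM and CXCL10 at 8624 ± 2499 CPM (SD). The nearest to CXCL9 was CXCL10, at 0.17, and the reverse held for CXCL10. CXCL11 lay 0.35 from CXCL10 and 0.51 from CXCL9. After CXCL10, the nearest to CXCL9 were BATF, an AP-1 family transcription factor (0.19), and PGLYRP2, a peptidoglycan-degrading amidase (0.20). After CXCL9, the nearest to CXCL10 were GBP5, an interferon-induced GTPase (0.18), and CXorf49B (0.21). The nearest to CXCL11 were CXCL3, a neutrophil chemokine (0.15), ENSG00000197262, which had no symbol (0.19), and the defensin DEFB4A (0.23). PGLYRP2, CXorf49B, CXCL3, ENSG00000197262 and DEFB4A averaged under 1 CPM with GST, where the prior count of 2 shapes the profile. Among the 15359 genes with at least 10 counts in every library, a restriction added after seeing the data, the nearest were CXCL10, BATF and PTX3 for CXCL9, CXCL9, GBP5 and BATF for CXCL10, and ENSG00000006075, CXCL10 and GBP5 for CXCL11. ENSG00000006075 also had no symbol here.

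The tests below concern other genes and were made with edgeR's quasi-likelihood test and Benjamini-Hochberg adjustment over all 16926 genes, at an adjusted p under 0.05. Of all genes, 9.15% were called higher and 11.4% lower with GST-PTR1, and 3.68% were called higher and 3.85% lower by at least 2-fold. The median log2 fold change was 0.01. Scaled by library totals instead, it was -0.19, and the share of calls that were higher went from 44.4% to 19.7%.

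The receptor CXCR3 was detected in every library and its level did not pass the test, and the other genes of the axis were at or near 0. CXCR3 had 68, 54 and 74 counts with GST and 63, 104 and 173 with GST-PTR1. The treatments overlapped at 1.71 ± 0.423 and 1.97 ± 0.422 RPKM (SD, n = 3), where CXCL11 with GST was at 1.67 ± 0.673, with a log2 fold change of 0.23 (SE 0.23, adjusted p = 0.517 by edgeR's quasi-likelihood test). The decoy receptor ACKR1 and the platelet CXCR3 ligands PF4 and PF4V1 had 0 counts in all 6 libraries, which allows up to 0.0761 to 0.18 CPM per library at a limit of 3 counts. ACKR3, which binds CXCL11 and CXCL12, and DPP4, a protease that trims these chemokines, had at most 5 counts in a library. Thus 1 of these 6 genes could be tested and 0 were called.

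Among the cytokines that induce these ligands, IFNG, the classical inducer, had 0 counts in all 6 libraries. Of the 10 genes on this list, 5 passed the filter on low counts. IFNL1, LTA and IL27 passed it only through the GST-PTR1 libraries, where they were high, so their values are given without a test. IFNB1 and TNF met the filter in the GST libraries alone, and both rose. IFNB1, which encodes interferon-β, had 13, 34 and 36 counts with GST and 61, 85 and 188 with GST-PTR1. It rose from 1.28 ± 0.438 to 3.54 ± 1.08 CPM, without overlap (log2 fold change 1.46, SE 0.30, adjusted p = 0.00614 by edgeR's quasi-likelihood test). IFNL1, a type III interferon, had 8, 7 and 14 counts and then 37, 22 and 72, or 0.458 ± 0.117 and 1.43 ± 0.547 CPM. IFNL3 had 2 counts in each GST library and 9, 7 and 15 with GST-PTR1, and IFNL2 had 4, 6 and 9 and then 23, 7 and 30. Both were below the filter, as were IFNA1, with at most 10 counts, and IFNA2, with at most 5.

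The remaining 3 inducers were nearly silent with GST. TNF had 7, 13 and 15 counts with GST and 234, 426 and 560 with GST-PTR1 (log2 fold change 4.59, SE 0.24, adjusted p = 3e-07 by edgeR's quasi-likelihood test). LTA, which encodes lymphotoxin-α, had 8, 8 and 6 counts and then 91, 142 and 204, or 0.366 ± 0.120 and 4.82 ± 0.637 CPM, without overlap. The cytokine subunit IL27 had 1 count over all GST libraries and 66, 94 and 158 with GST-PTR1. The ratio of its summed counts per scaled total was 224 (95% counting interval 39.9 to 8875). This interval pools the libraries of a treatment, leaves out the spread between them and is not a test. Per length, these inducers were below the ligands with GST-PTR1. There TNF reached 8.01 ± 1.57 RPKM and IFNB1 4.21 ± 1.29 RPKM, where CXCL11, the scarcest ligand, was at 82.4 ± 26.4. With GST, IFNB1 at 1.52 ± 0.522 RPKM overlapped CXCL11 at 1.67 ± 0.673.

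Of 9 receptor subunits for these cytokines, all were tested, 3 rose and 0 fell, with a median log2 fold change of 0.11. IFNGR2, the signal-transducing chain of the interferon-γ receptor, rose from 58.7 ± 1.44 to 131.9 ± 16.1 CPM (log2 fold change 1.17, SE 0.11, adjusted p = 3.14e-05 by edgeR's quasi-likelihood test). IFNLR1, the type III interferon receptor, rose from 5.82 ± 1.12 to 12.01 ± 1.46 CPM (1.05, SE 0.17, adjusted p = 0.00144 by the same edgeR test). TNFRSF1B, a TNF receptor, had 0.38, a call lost with library totals. It was also lost when the library left out was the GST one of 20077280 (adjusted p = 0.0589 by edgeR) or 23453473 counts (0.0609) or the GST-PTR1 one of 22874133 (0.0641) or 28837431 counts (0.104). IFNAR2, a chain of the type I interferon receptor, had 0.32 (adjusted p = 0.0817 by edgeR). The ligand-binding chain IFNGR1 was at 24.7 ± 3.29 and 26.6 ± 3.80 CPM and was not called.

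In the list of JAK kinases and transcription factors, 3 of 6 genes rose and 0 fell (median log2 fold change 0.29). Only 1 of them rose when scaled by library totals, and the same number when either the GST library of 23453473 or the GST-PTR1 library of 28837431 counts was omitted. IRF1, a transcription factor of ISRE elements, had the largest difference, from 77.3 ± 5.45 to 257 ± 9.30 CPM (1.73, SE 0.10, adjusted p = 6.98e-07 by edgeR's quasi-likelihood test). JAK2, a kinase of the interferon-γ receptor, and TYK2, a kinase of the type I and III receptors, rose by log2 fold changes of 0.71 and 0.49. Both calls were lost with library totals. JAK2 was also lost without the GST library of 23453473 counts (adjusted p = 0.0668 by edgeR) and when the GST-PTR1 library of 28837431 was omitted (0.0519). TYK2 was lost without the GST library of 20077280 counts (adjusted p = 0.0658 by edgeR) or of 23453473 (0.0815), and when the GST-PTR1 library of 22874133 was omitted (0.0509) or of 28837431 (0.0673). The log2 fold changes of STAT2, IRF9 and JAK1 were -0.04, 0.10 and 0.08, and none was called.

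The NF-κB list held 11 measured genes, of which 10 rose, 7 of them by at least 2-fold, and 0 fell (median log2 fold change 2.09). Leaving out each library in turn left 7 to 10 of the list called higher. The smallest adjusted p-values by edgeR's quasi-likelihood test belonged to the inhibitor family members NFKBIZ (log2 fold change 3.56, SE 0.13, adjusted p = 2.26e-08) and NFKBIA (3.02, SE 0.12, adjusted p = 3.39e-08), to the feedback ubiquitin editor TNFAIP3 (2.73) and to the subunit RELB (2.28). CHUK, a kinase of the IKK complex, had 0.42 (adjusted p = 0.0175 by edgeR). Its call was lost with library totals and when the library left out was the GST one of 23453473 (adjusted p = 0.0613), the GST-PTR1 one of 28837431 (0.0584) or that of 44688737 counts (0.0507). The subunit RELA was the least changed of those called, at 0.35 (adjusted p = 0.0444 by edgeR), and its call was lost with library totals. Leaving out each library in turn gave RELA adjusted p-values from 0.0196 to 0.148, and they were above 0.05 when the library left out was the GST one of 20077280 (0.116) or 23453473 counts (0.0958) or the GST-PTR1 one of 22874133 (0.116) or 28837431 counts (0.148).

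Of 11 measured genes that sense nucleic acid or microbial ligands upstream of interferon, 5 rose, and the median log2 fold change was 0.25. The 2 on the lower side were TLR3 and TLR4, with the limits given below. The RNA sensors IFIH1 (1.27) and DDX58 (1.19), the Toll-like receptor adaptor TICAM1 (1.22) and the interferon regulatory factor IRF5 (0.64) rose. TLR3, a receptor for double-stranded RNA, had 13, 28 and 24 counts with GST and 6, 10 and 16 with GST-PTR1. Its log2 fold change was -1.52 (SE 0.33). It met the filter on low counts only through the GST libraries, where it was high, so its values are given without a test. TLR4, the lipopolysaccharide receptor, fell by 0.36 (adjusted p = 0.0371 by edgeR). Its adjusted p without each library in turn ran from 0.0488 to 0.113, under 0.05 only without the GST library of 15202503 counts.

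Other genes that interferon-γ is known to induce make up a list of 18. Of these, 15 could be tested, 13 rose and 0 fell, 10 of them by at least 2-fold (median log2 fold change 1.67). The guanylate-binding protein genes GBP2, GBP5, GBP4 and GBP1 had log2 fold changes of 5.20, 4.92, 4.13 and 3.81 (SE 0.17, 0.20, 0.13 and 0.14), the first 2 in the range of the ligands' own values. PSMB8 and PSMB10, subunits of the immunoproteasome, were the least changed of those called, at 0.52 and 0.49 (adjusted p = 0.0325 and 0.0398 by edgeR). Both calls were lost with library totals. Each was also lost when the library left out was the GST one of 15202503 (adjusted p = 0.0648 and 0.0956) or 20077280 counts (0.0620 and 0.0885) or the GST-PTR1 one of 22874133 (0.0524 and 0.0636) or 44688737 counts (0.0857 and 0.115). Leaving out each library in turn left 10 to 13 of the list called. At the other end of the list, chosen after their values were seen, IDO1, UBD and SERPING1 had at most 3 counts in every library. Of 5 feedback genes, 4 rose and 0 fell (median 0.77). SOCS3, an inhibitor of JAK kinases, went from 1.21 ± 0.106 to 211 ± 32.5 CPM (log2 fold change 7.44, SE 0.18, adjusted p = 1.09e-09 by edgeR's quasi-likelihood test), and SOCS1, which acts on the interferon-γ receptor, from 1.65 ± 0.642 to 18.5 ± 2.85 CPM (3.47, SE 0.25, adjusted p = 2.7e-06 by the same edgeR test). The phosphatase PTPN2 had 0.63 (adjusted p = 0.00428 by edgeR). USP18, which restrains type I interferon signaling and is the median of this list, was at 12.5 ± 4.20 and 21.3 ± 4.28 CPM with overlapping treatments (0.77, SE 0.22, adjusted p = 0.0326 by edgeR). Its call was lost with library totals (adjusted p = 0.0617) and when the library left out was the GST one of 15202503 (0.0642) or 20077280 (0.106) or the GST-PTR1 one of 44688737 counts (0.0851).

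**Figure D4:**
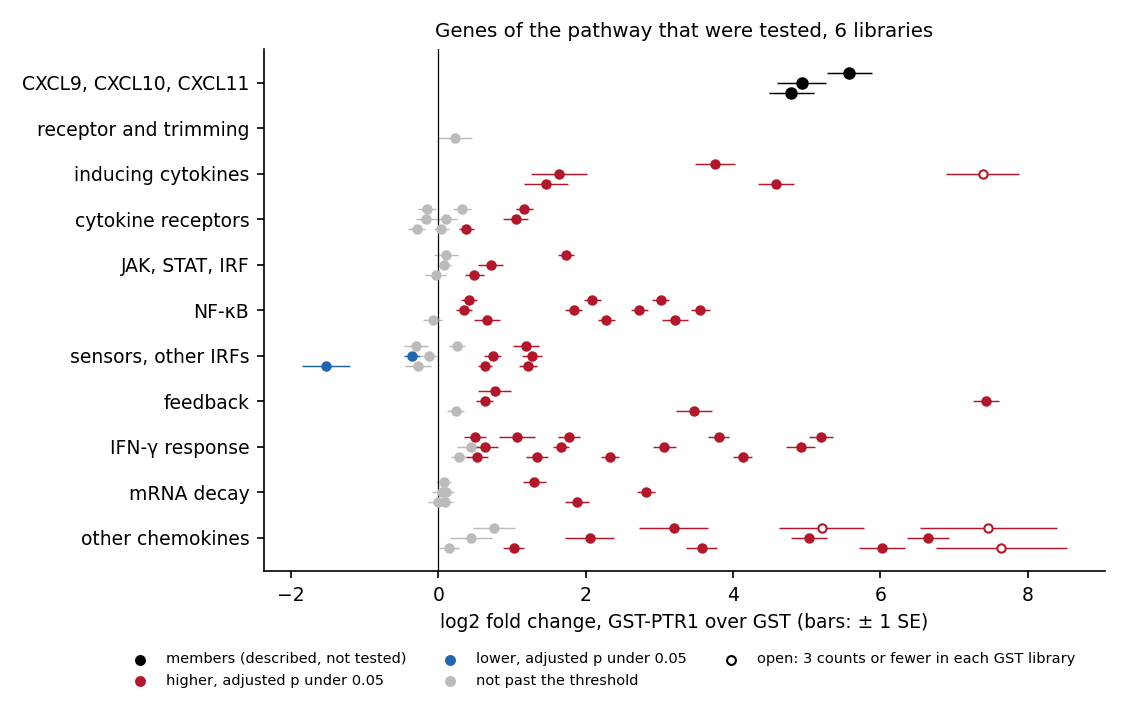
Log2 fold change (GST-PTR1 over GST, bars ± 1 SE) of CXCL9, CXCL10 and CXCL11 in black and of the tested genes of each pathway list, colored by whether the adjusted p was under 0.05, with open points for genes at 3 counts or fewer in every GST library, whose fitted value depends on the prior count. Among cytokines IFNL1, LTA and IL27, and among other chemokines CXCL1, CXCL2, CXCL3, CCL8, CCL19 and CCL22, passed the filter only through the GST-PTR1 libraries. TLR3, among the sensors, passed it only through the GST libraries. The ligands lie between 4.79 and 5.58, and the JAK, STAT and IRF genes between -0.04 and 1.73.

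Chemokine mRNAs are often short-lived, and proteins that bind AU-rich elements of the 3′ untranslated region control their decay. In the GENCODE v29 transcripts used, the 3′ untranslated regions of CXCL9, CXCL10 and CXCL11 are 2323, 813 and 1111 bases long and hold 6, 1 and 1 ATTTA pentamers. This is 2.58, 1.23 and 0.900 per kb, against a median of 1.69 over 17012 genes. None of the 3 holds the nonamer TTATTTATT, which 9.13% of those genes hold. Of 8 genes for proteins that control such mRNAs, 3 rose and 0 fell (median log2 fold change 0.09). ZC3H12A, an endonuclease of inflammatory mRNAs, had a log2 fold change of 2.81 (SE 0.12, adjusted p = 7.55e-08 by edgeR's quasi-likelihood test), and ZFP36 and ZFP36L1, which recruit deadenylases, had 1.89 and 1.30. The stabilizing factor ELAVL1 (0.07) and the decay factor RC3H1 (0.10) were not called.

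Other chemokine genes served for comparison, and 31 of the 37 listed were matched by symbol on the primary chromosomes. Of these, 13 passed the filter on low counts, but CXCL1, CXCL2, CXCL3, CCL8, CCL19 and CCL22 did so only through the GST-PTR1 libraries, where they were high, and are given without a test. Of the remaining 7, 4 rose and 0 fell (median log2 fold change 1.03). CXCL8 and CXCL6, neutrophil chemokines of the same chromosome, had log2 fold changes of 6.65 and 5.03 (SE 0.28 and 0.24). The value of CXCL8 was above that of CXCL10 (4.93, SE 0.33), and that of CXCL6 lay within the SE of it. CCL2, a monocyte chemokine, had 3.58 (SE 0.21). The levels per length of CXCL8, CXCL6 and CCL2 with GST-PTR1 stayed below those of CXCL10 and CXCL9. CXCL8 stood at 133 ± 40.3 RPKM, CCL2 at 59.9 ± 13.7 and CXCL6 at 8.35 ± 1.36, where CXCL11 was at 82.4 ± 26.4. CXCL12, a homing chemokine of the marrow, had the highest mean level of this list with either treatment, though with GST-PTR1 the highest library of CXCL8 (177.6 RPKM) was above every library of CXCL12 (at most 158.7). It rose from 69.0 ± 5.12 RPKM, above the GST mean of CXCL9, to 140.5 ± 24.7 RPKM (1.03, SE 0.14, adjusted p = 0.000544 by edgeR's quasi-likelihood test). CXCL3 had 1, 3 and 6 counts with GST and 210, 265 and 501 with GST-PTR1, CCL22 had 6, 9 and 12 and then 26, 61 and 76, and CCL8 had 2, 4 and 3 and then 24, 25 and 77. CXCL1 and CXCL2 had 0 counts with GST. Against a limit of 3 counts over the GST group they were at least 17.6-fold and 20.5-fold higher. Chosen after their values were seen, CCL19 went from 3 counts over the GST libraries to 35, 55 and 86 (ratio 41.3, 95% counting interval 13.9 to 202.3), and 9 of the 31 genes had 0 counts in every library. The interval of CCL19 also leaves out the spread between libraries and is not a test.

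Among the genes around the ligands 1 passed the test. Within 500 kb of the cluster the table lists 30 other genes, of which 11 could be tested, 1 rose and 0 fell, with a median log2 fold change of -0.06. This is 9.09% of those tested, where 9.15% of all genes were called higher, so the count is no result about the neighbourhood. The gene was SDAD1, which starts 32.5 kb from the start of CXCL10 and encodes a ribosome biogenesis protein. Its log2 fold change was 0.43 (SE 0.10, adjusted p = 0.0145 by edgeR's quasi-likelihood test). The call was lost with library totals, without the GST library of 23453473 counts (adjusted p = 0.0529 by edgeR) and when the GST-PTR1 library of 28837431 was omitted (0.0579). The others ranged from -0.71 for STBD1, with 9 counts in the smallest library, to 0.29 for NUP54, and NAAA, the next tested gene beyond SDAD1, had -0.06 (SE 0.11). ART3, on the opposite strand across CXCL10 and CXCL11, had 1 count in all 6 libraries together, against 830238 for CXCL10. No exon of any other gene shares a base with those of the ligands.

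**Figure D5:**
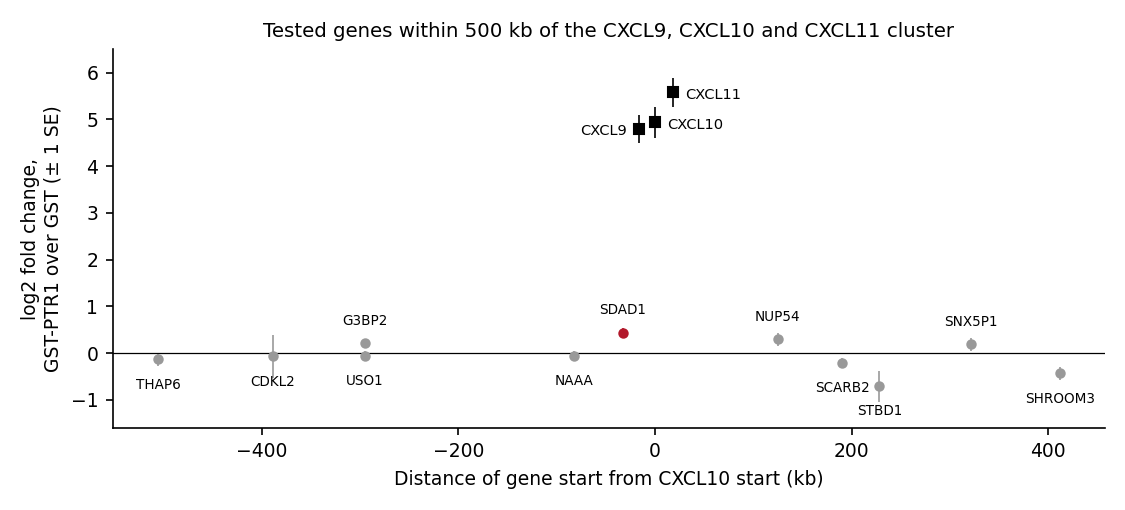
Log2 fold change (GST-PTR1 over GST, vertical axis, bars ± 1 SE) of the 11 tested neighbour genes and of the 3 ligands (black squares) against the distance of each gene's start from that of CXCL10 in kb. SDAD1 in red is the neighbour past the threshold, at 0.43, and the ligands lie at 4.79 to 5.58.

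Markers of plasma cells were present in every library, and those of cells that also make or answer these ligands were low. The summed RPKM of 8 plasma cell markers was 325.7 to 390.4 with GST and 292 to 301 with GST-PTR1, where SDC1, TNFRSF17 and XBP1 fell and PRDM1, IRF4 and SLAMF7 rose. The 8 T and NK cell markers summed to 6.02 to 7.84 and to 3.90 to 5.04 RPKM, mostly from NCAM1 and CD8A, which fell, and CD2 had 0 counts. The 8 myeloid markers summed to 0.209 to 0.491 and to 0.151 to 0.312 RPKM, with FCGR3A, CD163, FCN1 and CLEC10A at 0. The 7 stromal and endothelial markers measured summed to 0.0305 to 0.0707 and to 0.0456 to 0.0558 RPKM, with COL1A2, DCN, LUM and CDH5 at 0. In bulk RNA a change in every cell and a change in a few cells cannot be told apart.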

How the data were processed

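RNA-Seq libraries were made with a strand-specific Illumina mRNA kit, and the paper credits their preparation and sequencing to a service company. The authors deposited whole-number counts per gene from featureCounts 1.5.0-p1 on Ensembl release 75 of GRCh37, by reverse strand, without reads that mapped to several places or genes. The aligner's role and version are not given in the sources used here. Nothing was normalized. From the counts, CPM and RPKM were computed on TMM-scaled totals and the deposited exon lengths. Tests used edgeR 4.0.16 in R 4.3.3 (filterByExpr, TMM, glmQLFit and glmQLFTest, Benjamini-Hochberg over 16926 genes, 2-sided), and the methods were tested on simulated data. DESeq2 1.42.0, limma voom 3.58.1, other scalings and filters, and leaving out each library were tried. Symbols came from Ensembl identifiers for 39699 of 63677 genes.

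The members and gene lists were chosen with earlier results of these data known. Genes could be named if they were the ligands, every gene of the CXCR3, cytokine and JAK, STAT and IRF lists, neighbours within 500 kb, and of each other list the 4 smallest adjusted p-values and the 2 lowest log2 fold changes among calls. Genes beyond these, such as IFNGR1, ELAVL1, CXCL1, CXCL2, CCL8 and CCL19, were added after their values were seen. IKBKG, IKBKE, PECAM1, CCL3, CCL4, CCL5, CCL15, CCL18 and CCL23 were not matched by symbol and were not used under these names. Some of them could be among the genes of the count table that had no symbol here, so a missing match does not mean that a gene was unmeasured. Libraries within a treatment differed by more than sampling noise (chi-square per gene 7.66 to 41.5). The columns carry numbers other than the labels' replicate numbers, so libraries are named by their totals. With these totals, 3 counts, taken as the limit of detection, are worth 0.0761 to 0.18 CPM. Results of 1 further gene of the pathway are not reported here.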

Additional observations from a re-analysis of the deposited data

How the results depend on the processing

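The log2 fold changes of the ligands kept their direction under all 14 alternatives and ran from 4.57 to 5.03 for CXCL9, 4.65 to 5.15 for CXCL10 and 5.32 to 5.87 for CXCL11, ends reached by leaving out 1 library. With library totals they were 4.59, 4.73 and 5.37. Of the 75 pathway genes that met the filter in the GST libraries alone, 47 were called higher, where 9.15% of all genes were. That share is over all 16926 genes, whichever libraries they passed the filter through. The lists were chosen with earlier results of these data known, so the difference between the shares is not read as a result. A further 9 pathway genes passed the filter only through the GST-PTR1 libraries and are not read as tested. Counted with these, the number called higher was 56 of 84 and ran from 43 to 61. The number called lower, 2, was 4 with library totals and 1 with a filter of at least 1 count in any library, with one of at least 10 counts in every library and with a 2-fold threshold, and leaving out each library gave 1 to 2. The 2 include TLR3, which met the filter only through the GST libraries and is not read as tested. Among genes that met the filter in the GST libraries alone, 2 inducing cytokines and 4 other chemokines were called higher. With at least 10 counts in every library, which removes genes nearly silent with GST, these numbers were 1 and 3. With library totals, JAK, STAT and IRF genes called higher went from 3 to 1 and cytokine receptors called lower from 0 to 1. The number of neighbours called higher, 1, was 0 with library totals and 0 to 1 without each library. The number called lower, 0, was 2 with library totals, 1 with DESeq2, 1 with the filter of at least 1 count and 0 to 0 without each library.

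The replicate numbers of the labels could not be matched to the columns. In 4 libraries, columns of different treatments carry equal numbers. Within each treatment the difference in log2 CPM between its libraries among these 4 was taken for each gene. The differences of GST and of GST-PTR1 correlated at -0.03 over 16926 genes. With so few libraries this cannot show whether they were paired, and nothing was paired in the main fit. In a fit of these 4, added after seeing the data, the column number served as a replicate block. The ligands' log2 fold changes were then 4.81, 4.83 and 5.52. With the block and without it, 0 neighbours were called higher. The 1 pathway gene called lower was TLR3, which in the main fit met the filter only through the GST libraries. Its call is not read as a test.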
